A study of Homo sapiens with 12 samples.

Results

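The E2F and pocket protein genes E2F1, E2F2, E2F3, E2F4, E2F5, E2F6, E2F7, E2F8, RBL1 and RBL2 were followed through 12 columns of array signal from 2 cancer cell lines treated with inhibitors of CBP and p300. The rule takes rows by gene name and uses no measured value, and its members were 10 of the 34687 rows of the table. HCT116 is a human colon cancer line and PANC1 a human pancreatic adenocarcinoma line. Each line was exposed to the solvent DMSO (0.05%, the control), to 10 uM ICG-001 or to 10 uM C646, and RNA was taken at 12 or 96 h. ICG-001 blocks the binding of the co-activator CBP to β-catenin, and C646 inhibits the acetyltransferase activity of both CBP and p300, so the study asked whether blocking one co-activator or both would affect different genes. By the study's methods, cells for the 12 h collection were denser when treatment began than cells for the 96 h collection, which were passaged during treatment, so time, density and passage cannot be told apart between 12 and 96 h.

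E2F proteins are transcription factors that bind DNA with a DP partner and control genes needed for the start of S phase. E2F1, E2F2 and E2F3 activate transcription when the retinoblastoma protein is phosphorylated and releases them. E2F4 and E2F5 work mostly as repressors together with the pocket proteins p107 (RBL1) and p130 (RBL2) in resting and early G1 cells, E2F6 represses without pocket proteins as part of a Polycomb-type complex, and E2F7 and E2F8 are atypical repressors that bind DNA without a DP partner.

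Some of these genes carry E2F motifs in their own promoters, so the bases just upstream of the first start are shown for the members with a motif and then for those without one. RefSeq promoters (assembly GRCh38.p14, 250 bases before to 50 after each start) were given for 8 members, with 2 starts each for E2F3 and RBL2, and E2F5 and E2F8 had no entry. The motifs TTTGGCGC, TTTCCCGC, TTTCGCGC and TTTGCCGC were searched on both strands. Any of them stood in 3.31% of 35116 promoters, and singly in 0.652%, 1.63%, 0.515% and 0.607%. They stood in 4 member promoters, those of E2F1, E2F2, RBL1 and the first E2F3 start. The sequences below are the 110 bases before the start, 5′ to 3′ on the strand of the gene, with the E2F motifs in capitals.
E2F1, chr20:33686386-33686495, minus strand: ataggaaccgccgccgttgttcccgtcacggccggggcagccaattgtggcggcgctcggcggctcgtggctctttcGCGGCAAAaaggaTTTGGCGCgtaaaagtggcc
E2F2, chr1:23531234-23531343, minus strand: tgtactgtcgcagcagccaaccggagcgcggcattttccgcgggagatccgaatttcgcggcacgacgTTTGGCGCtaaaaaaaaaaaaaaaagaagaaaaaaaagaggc
E2F3, chr6:20401769-20401878, plus strand: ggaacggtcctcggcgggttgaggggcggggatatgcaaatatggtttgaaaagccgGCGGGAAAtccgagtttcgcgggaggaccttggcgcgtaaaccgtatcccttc
RBL1, chr20:37095998-37096107, minus strand: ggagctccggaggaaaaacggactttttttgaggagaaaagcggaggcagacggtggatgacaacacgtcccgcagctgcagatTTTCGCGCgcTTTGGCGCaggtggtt
None of the 4 motifs stood in the windows of E2F4, E2F6, E2F7 and RBL2.
E2F4, chr16:67192045-67192154, plus strand: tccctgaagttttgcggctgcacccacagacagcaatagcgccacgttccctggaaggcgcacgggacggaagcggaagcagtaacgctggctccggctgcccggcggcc
E2F6, chr2:11466162-11466271, minus strand: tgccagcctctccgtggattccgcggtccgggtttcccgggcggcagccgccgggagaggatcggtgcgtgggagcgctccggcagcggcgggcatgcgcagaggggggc
E2F7, chr12:77065570-77065679, minus strand: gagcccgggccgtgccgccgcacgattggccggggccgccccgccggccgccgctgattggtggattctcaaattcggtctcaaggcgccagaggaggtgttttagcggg
RBL2, chr16:53434361-53434470, plus strand: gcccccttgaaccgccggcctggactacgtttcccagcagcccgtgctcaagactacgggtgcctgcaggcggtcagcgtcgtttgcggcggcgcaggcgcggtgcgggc
TTTGGCGC began at position -42 before the E2F2 start, at -20 before the E2F1 start and at -16 before the RBL1 start. The motif before the E2F3 start is TTTCCCGC read on the opposite strand, and the upstream motif of E2F1 is TTTGCCGC read on the opposite strand. A match is a description of letters and not evidence of binding. The CHR motifs TTTGAA and TTCGAA, which stood in 16.4% of all promoters, were found in the windows of E2F3 and RBL2. CCAAT, which stood in 34.6%, was found in those of E2F1, E2F3, E2F7 and the second RBL2 start.

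Replicate arrays had been averaged by the authors into 1 column per group (3 arrays for PANC1 treated with ICG-001 for 12 h, and 2 for every other group), so there is no replicate check, no error and no test for any difference below. A gene was called above background when its signal passed the detection limit of its column, which lay at 143.22 to 144 in HCT116 and 134.59 to 137.9 in PANC1. A gene was called changed when its signal differed at least 1.5-fold (0.585 on the log2 scale) between 2 columns and passed the limit in either. Of all rows, 44.5% to 48.0% were above the limit in a column. Log2 ratios of genes under the limit in both columns had an SD of at most 0.073. The epithelial markers EPCAM, CDH1, KRT8, KRT18 and KRT19 were above the limit in 6 of 6 columns of each line. Of the intestinal markers, CDX2 was above it in 6 of 6 columns of each line, VIL1 in 0 of 6 columns of each, and LGALS4 in 0 of 6 HCT116 columns and 5 of 6 PANC1 columns. Of the mesenchymal markers, VIM was above it in 6 of 6 columns of each line, and CDH2 and ZEB1 in 0 of 6 HCT116 columns and in 6 and 5 PANC1 columns. Of markers of other cells, PTPRC, CD3E, PECAM1 and COL1A2 were under the limit in all 12 columns and COL1A1 was above it in all 12.

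Of the 10 members, 8 were above the limit in all 12 columns. E2F8 was above it in 4 of 6 HCT116 columns and 5 of 6 PANC1 columns, and RBL1 in 2 of 6 and 6 of 6. The plot of signals by column shows E2F2 as the member with the widest range in HCT116.

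**Figure D1:**
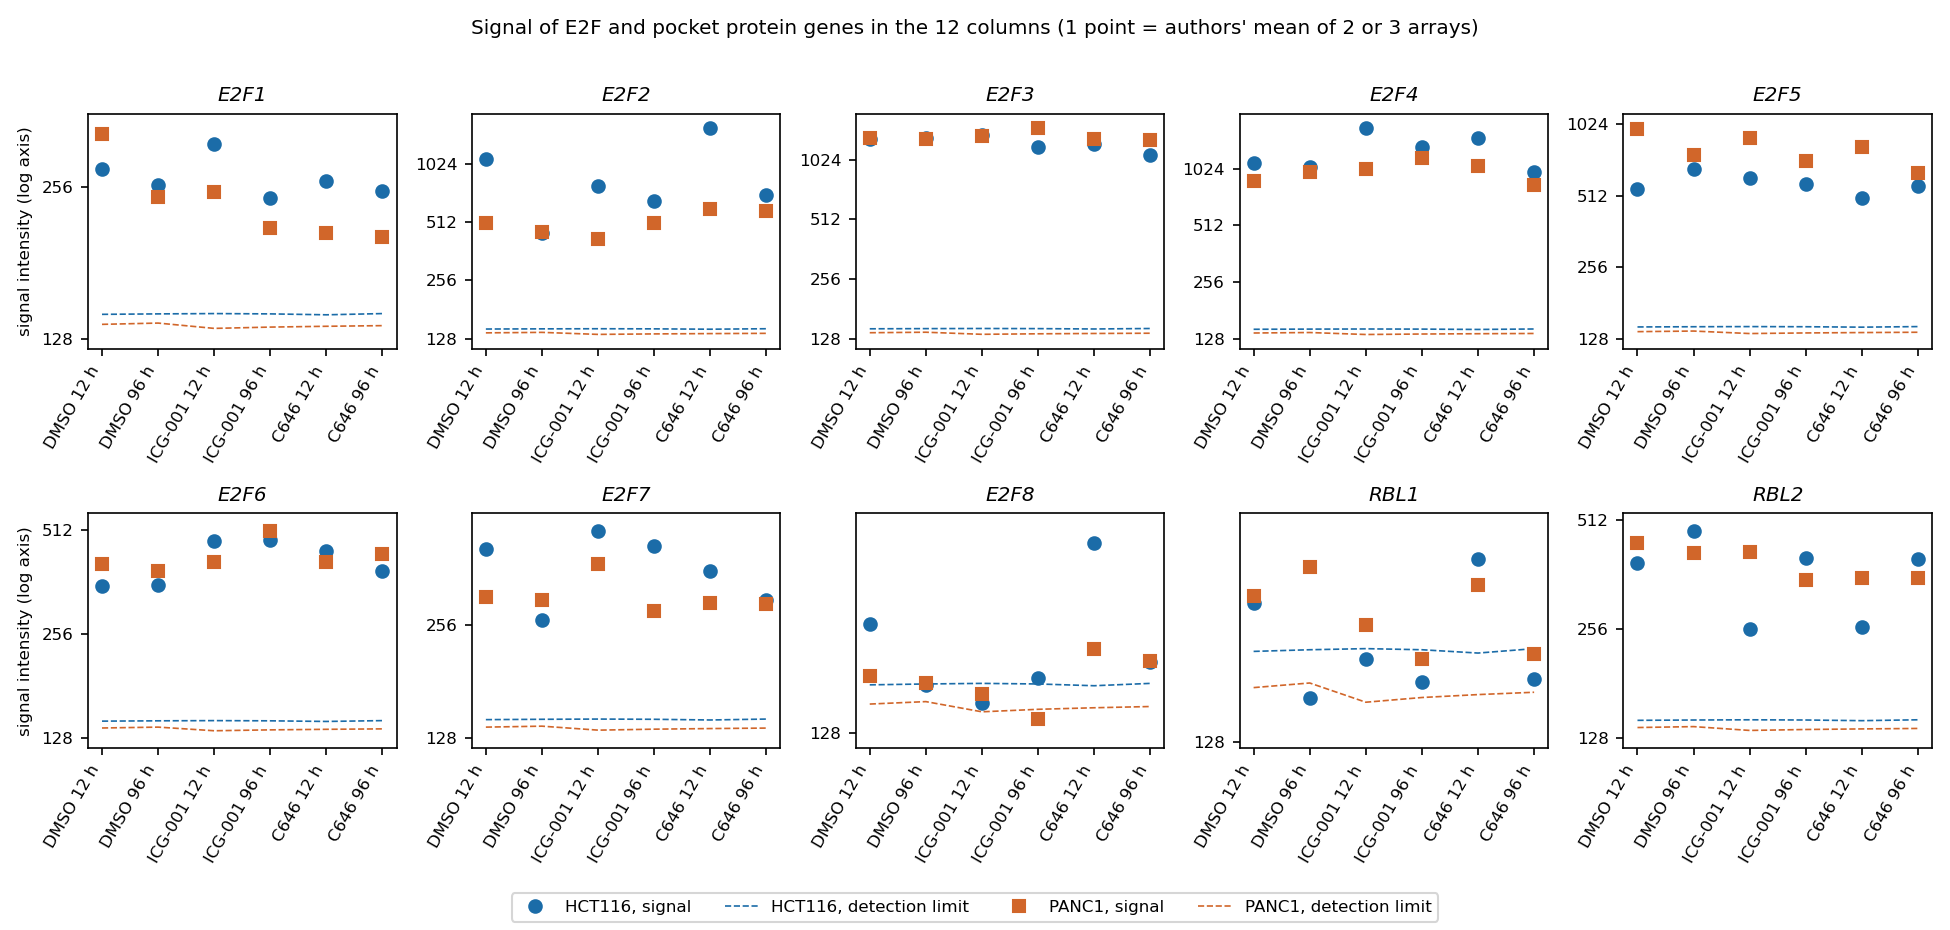
Signal intensity (log axis) of each of the 10 members in the 12 columns, with HCT116 as circles and PANC1 as squares; each point is the authors' mean of 2 or 3 arrays, and dashed lines are the detection limits. E2F2 spans 452.1 to 1570 in HCT116, while E2F8 and RBL1 lie close to the limits.

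E2F2, an activator, had its largest HCT116 differences between 12 and 96 h in DMSO and in C646, but not in ICG-001. Its signal was 1089 in DMSO at 12 h and 452.1 in DMSO at 96 h, 791.6 and 660.1 in ICG-001, and 1570 and 704.9 in C646. C646 at 12 h was thus the highest HCT116 column and DMSO at 96 h the lowest, and the other drug columns lay between the DMSO columns. From 12 to 96 h E2F2 fell 2.41-fold in DMSO and 2.23-fold in C646. In ICG-001 the log2 ratio was -0.26, short of the threshold. At 12 h, E2F2 was 1.98-fold lower in ICG-001 than in C646.

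Because the DMSO columns differed so much, the ratio of E2F2 to DMSO depended on which one was used. Against DMSO of the same time, the HCT116 log2 ratio for ICG-001 was -0.46 (12 h) or 0.55 (96 h). For C646 it was 0.53 (12 h) or 0.64 (96 h), and the last of these passed 1.5-fold (1.56-fold higher). Against the mean of both DMSO columns, the ICG-001 values turned to 0.17 at 12 h and -0.09 at 96 h, and C646 gave 1.16 at 12 h and 0.01 at 96 h.

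In PANC1, E2F2 was flatter. Its signal was 509.8 and 454.8 in DMSO at 12 and 96 h, 419 and 510.4 in ICG-001, and 599.5 and 584.4 in C646. Both C646 columns stood above both DMSO columns, with log2 ratios of 0.23 and 0.36 that did not reach 1.5-fold. ICG-001 was below both DMSO columns at 12 h and just above the higher one at 96 h.

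E2F1, the founding activator, changed in 1 comparison. Its signal in PANC1 was 326 and 245.2 in DMSO at 12 and 96 h, 250.4 and 212.7 in ICG-001, and 207.8 and 204.1 in C646. DMSO at 12 h was the highest PANC1 column, and 3 of the 4 drug columns lay below both DMSO columns. E2F1 fell 1.57-fold in C646 at 12 h; against the mean of both DMSO columns no member changed in that comparison. In HCT116, E2F1 ran from 243.6 to 312.1, with a median of 261.4 over the 6 columns, and no difference reached 1.5-fold. E2F3, the third activator, stayed between 1088 and 1364 in HCT116 and between 1295 and 1475 in PANC1, and never changed 1.5-fold.

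E2F4, the main repressor partner of p107 and p130, was highest in HCT116 at 12 h with either drug. Its signal was 1095 and 1048 in DMSO at 12 and 96 h, 1685 and 1338 in ICG-001, and 1495 and 988.4 in C646. Of the 4 drug columns, 3 were above both DMSO columns, and C646 at 96 h was below both. E2F4 rose 1.54-fold in ICG-001 at 12 h, a call that was lost under quantile normalization over all columns, where its log2 ratio was 0.58. In C646 at 12 h its log2 ratio was 0.45. From 12 to 96 h it fell 1.51-fold in C646.

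In PANC1, E2F4 was 881.3 and 986.8 in DMSO, 1022 and 1173 in ICG-001, and 1057 and 842.9 in C646 at 12 and 96 h. The pattern of sides was the one seen in HCT116, with C646 at 96 h as the single drug column below both DMSO columns, but no PANC1 difference reached 1.5-fold. E2F5, the other pocket-binding repressor, ran from 502.5 to 665.8 in HCT116 and from 640.2 to 977.7 in PANC1, with no change of 1.5-fold. Its log2 ratio to DMSO was below 0 in 7 of 8 drug comparisons, from -0.25 to -0.08, and 0.16 in HCT116 ICG-001 at 12 h.

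RBL2, the gene for p130, was low in HCT116 at 12 h with either drug. Its signal was 388.8 and 477.4 in DMSO at 12 and 96 h, 255.7 and 402.5 in ICG-001, and 260.1 and 400.6 in C646. The 2 drug columns at 12 h lay below all other HCT116 columns, and those at 96 h lay between the DMSO columns. RBL2 fell 1.52-fold in ICG-001 at 12 h, and its log2 ratio in C646 at 12 h, -0.58, was just short of the threshold. From 12 to 96 h it rose 1.57-fold in ICG-001 and 1.54-fold in C646, while the log2 ratio in DMSO was 0.30.

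In PANC1, RBL2 was 440.7 and 413.8 in DMSO, 418 and 348.6 in ICG-001, and 352.9 and 353.9 in C646 at 12 and 96 h. Of the 4 drug columns, 3 lay below both DMSO columns, and no difference reached 1.5-fold. RBL1, the gene for p107, was near the limit: in HCT116 it passed it in C646 at 12 h (161.2) and DMSO at 12 h (152.6), and in PANC1 it ran from 142.1 to 159.7. RBL1 could not be compared where it was under the limit in both columns, so 9 of 10 members entered 4 of the 18 comparisons.

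E2F6, the pocket-independent repressor, was the member that stood above both DMSO columns in every drug column of both lines. In HCT116 its signal was 351.6 and 353.9 in DMSO, 474.5 and 479.7 in ICG-001, and 445.7 and 390.5 in C646 at 12 and 96 h. In PANC1 it was 408.5 and 389.9 in DMSO, 412.6 and 510.1 in ICG-001, and 414.3 and 436 in C646. In HCT116 the DMSO columns nearly coincided, and the lowest drug column was 390.5 against 353.9 in the higher DMSO column, a log2 ratio of 0.14. In PANC1 the lowest drug column, 412.6, was close to the higher DMSO column, 408.5. All 4 drug columns were on one side of both DMSO columns for 22.2% of genes in HCT116 and 26.8% in PANC1, either way. Standing above in both lines was seen for 4.85% of genes. Of the 10 members, 1 did so. The E2F6 log2 ratios reached 0.43 and 0.44 in HCT116 ICG-001 at 12 and 96 h and 0.39 in PANC1 ICG-001 at 96 h, and none passed 1.5-fold.

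E2F7, an atypical repressor, fell 1.54-fold in HCT116 from 12 to 96 h in DMSO. Its signal was 404.8 and 262.9 in DMSO at 12 and 96 h, 452.6 and 412.3 in ICG-001, and 354.4 and 298.1 in C646. Both ICG-001 columns stood above both DMSO columns, and both C646 columns lay between them. E2F7 rose 1.57-fold in ICG-001 at 96 h, but against the mean of both DMSO columns its log2 ratio there was 0.34 and no longer a call. In PANC1, E2F7 was between 277.6 and 369.9, with ICG-001 at 12 h as the highest column, and did not change 1.5-fold.

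E2F8, the other atypical repressor, was highest in HCT116 in C646 at 12 h (201.2), followed by DMSO at 12 h (165.7), and under the limit in ICG-001 at 12 h (137.3). By these signals E2F8 in ICG-001 at 12 h was 1.465-fold lower than in C646, which was not called changed. Because the ICG-001 signal was under the limit, the difference can be given only as at least 1.40-fold. Whether it reached 1.5-fold cannot be told. In PANC1 its signal ran from 132.4 to 156.2, with both C646 columns above both DMSO columns. E2F2, E2F8 and RBL1 shared the order of their 2 highest HCT116 columns, C646 at 12 h and then DMSO at 12 h. For RBL1 these were 161.2 and 152.6, a log2 ratio of 0.08, where genes under the limit had an SD of 0.072. The order for RBL1 is therefore within the spread of background values.

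At most 2 members changed in any comparison with DMSO, and the share of all genes tested that changed is given beside each count. In HCT116, 2 of 10 members changed in ICG-001 at 12 h (8.99% of all genes did), 1 of 9 at 96 h (10.3%), 0 of 10 in C646 at 12 h (4.12%) and 1 of 9 at 96 h (3.15%). In PANC1, ICG-001 changed 0 of 10 at 12 h (2.49%) and 0 of 10 at 96 h (7.37%), and C646 changed 1 of 10 at 12 h (6.68%) and 0 of 10 at 96 h (4.02%). The ICG-001 and C646 ratios of one line and time share a DMSO column. With 10 members, these counts are too small to set the family apart from other genes.

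**Figure D2:**
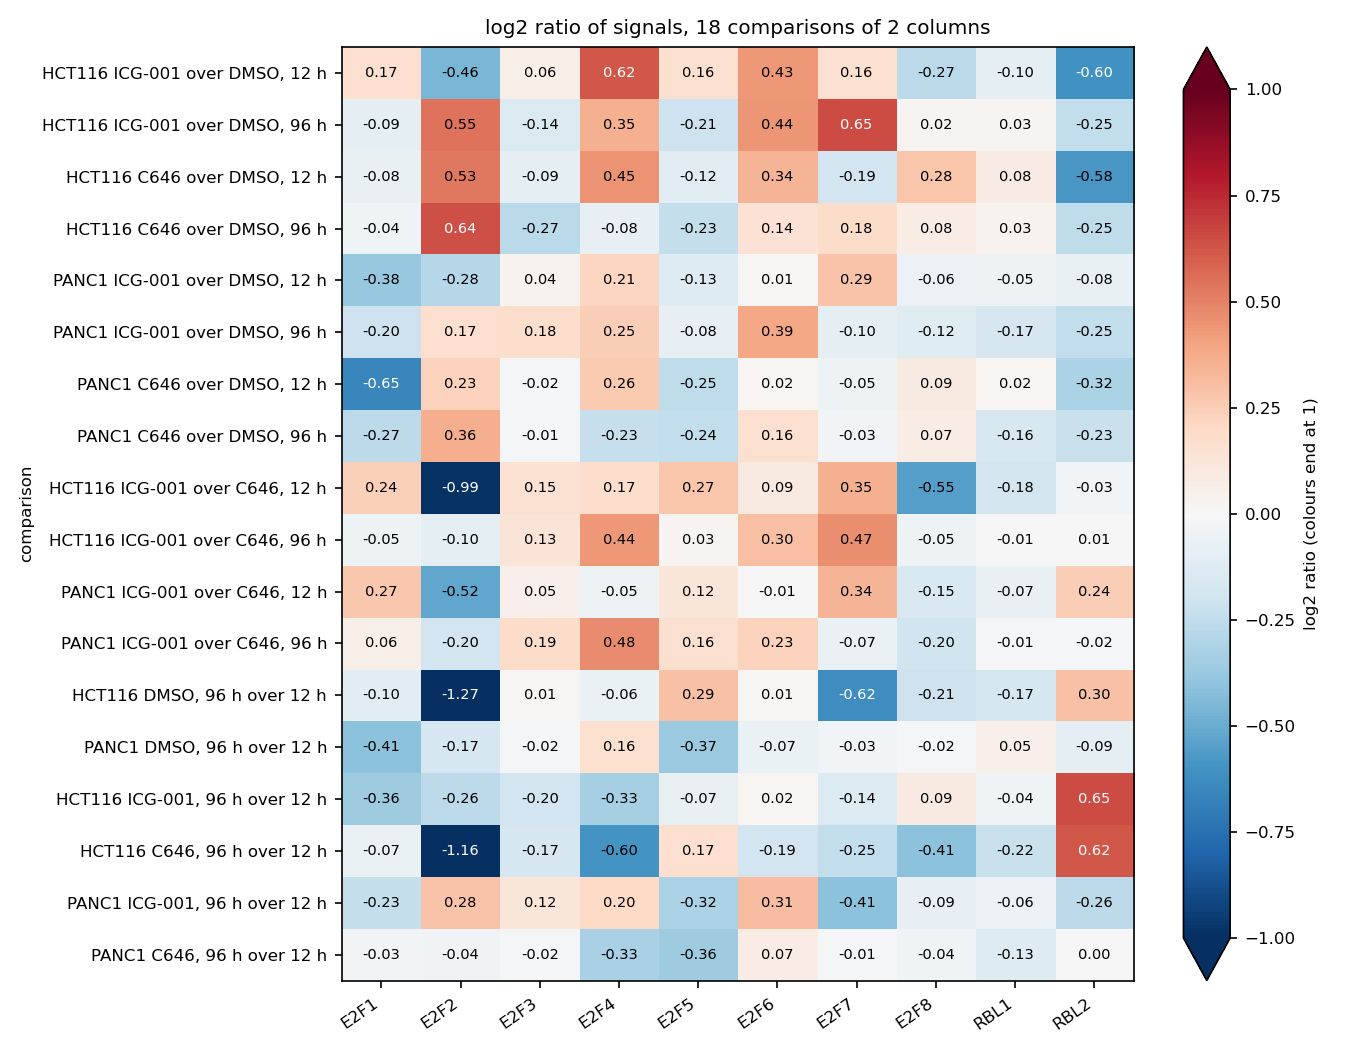
Log2 ratio of signals for each of the 10 members (across) in the 18 comparisons of 2 columns (down), red for higher and blue for lower in the first-named group, with colours ending at 1. The E2F2 ratio is -1.27 from 12 to 96 h in HCT116 DMSO and -0.99 for ICG-001 over C646 at 12 h, and in PANC1 most ratios are small.

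Direct comparison of the drugs gave 1 call. In HCT116 at 12 h, 1 of 10 members, E2F2, differed 1.5-fold between ICG-001 and C646 (6.25% of all genes), and at 96 h 0 of 9 did (6.57%). In PANC1, 0 of 10 differed at 12 h (2.49%) and at 96 h (6.78%). The largest of the other differences were for E2F8 at 12 h in HCT116, E2F2 at 12 h in PANC1 (-0.52) and E2F4 at 96 h in PANC1 (0.48).

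Between 12 and 96 h, more members changed in HCT116 than in PANC1. In DMSO from 12 to 96 h, 2 of 10 members, E2F2 and E2F7, fell in HCT116 (3.12% of all genes changed) and 0 of 10 changed in PANC1 (1.31%). In ICG-001, 1 of 9 changed in HCT116 (6.88%) and 0 of 10 in PANC1 (3.92%). In C646, E2F2, E2F4 and RBL2 changed in HCT116, 3 of 10 (7.11%), and 0 of 10 changed in PANC1 (0.482%). The difference between the lines was not tested.

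The 3 genes most like E2F2 in pattern work in DNA replication and chromatin assembly. Among 11733 other genes above the limit in all 12 columns, with log2 signals centred within each line, those most like E2F2 were POLA2, a subunit of DNA polymerase alpha (Pearson r = 0.967 over 12 columns), CHAF1B, a subunit of the chromatin assembly factor CAF-1 (0.966), and RFC2, a clamp loader subunit (0.957). The 12 points share the arrays, the normalization and the DMSO columns, so these correlations are descriptions. For RBL2 the most alike genes were DHPS (0.994), IER5L (0.959) and PPP1R2 (0.954), for E2F6 SDSL (0.943), SIK3 (0.941) and SCRN1 (0.932), and for E2F4 FEM1A (0.949), NIP7 (0.943) and a row known only by a UniGene cluster number (0.928). Those most like E2F1 were RNF216L (0.929), RPS6 (0.928) and ATG16L1 (0.927), those most like E2F3 C14orf166 (0.965), ANAPC10 (0.925) and LOC728416 (0.905), those most like E2F5 AP1M2 (0.916), ARMC10 (0.912) and WASH3P (0.889), and those most like E2F7 RER1 (0.899), TRIM7 (0.897) and MRPS16 (0.897). Between members, E2F6 and E2F4 were the most alike (0.746), and RBL2 ran opposite to E2F4 (-0.761), E2F2 (-0.695) and E2F6 (-0.634). With E2F2, r was -0.024 for E2F1 and -0.047 for E2F3, which carry an E2F motif. It was 0.318 for E2F4, 0.291 for E2F7, 0.213 for E2F6 and -0.695 for RBL2, which carry none in these windows. RBL1, which carries a motif, was not above the limit in all columns and was not compared. A link between motif and pattern was not tested.

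Genes that E2F proteins are known to drive at the G1 to S phase transition were summarised as a list of 34 genes, which includes the MCM helicase, GINS and DNA polymerase alpha subunits. In HCT116, 26 of 34 fell from 12 to 96 h in DMSO (3.12% of all genes changed either way) and 25 of 34 in C646 (7.11%), with medians of -0.90 and -0.76 on the log2 scale (all-gene medians near 0), and GINS2 fell furthest in each (-1.67 and -1.50). In ICG-001 at 12 h, 15 of 34 fell against DMSO (8.99% of all genes changed), with a median of -0.49 and MCM4 at -1.15, and 20 of 34 were lower than in C646 (6.25%), with a median of -0.79 and GINS2 at -1.31. The E2F2 log2 ratios in these comparisons were -1.27, -1.16, -0.46 and -0.99 in that order, and the comparisons share columns with one another. Other HCT116 comparisons were less alike: in ICG-001 against DMSO at 96 h, 4 of 34 targets rose and 3 fell (10.3% of all genes changed), with a median of 0.10 and an E2F2 log2 ratio of 0.55, and from 12 to 96 h in ICG-001 6 of 34 fell (6.88%), with a median of -0.32 and an E2F2 log2 ratio of -0.26. In C646 at 12 h 1 of 34 rose (CDT1, 0.88, with 4.12% of all genes changed) and at 96 h 3 of 33 (CDT1, 1.32, with 3.15%), and none fell. The E2F2 log2 ratios there were 0.53 and 0.64. For the targets, too, the HCT116 DMSO columns differed. As log2 signal minus the mean of the line, the target median was 0.44 in DMSO at 12 h and -0.40 at 96 h. The medians in ICG-001 at 12 h (-0.08) and 96 h (-0.34) and in C646 at 96 h (-0.20) lay between these. The median in C646 at 12 h (0.59) lay above both.

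**Figure D3:**
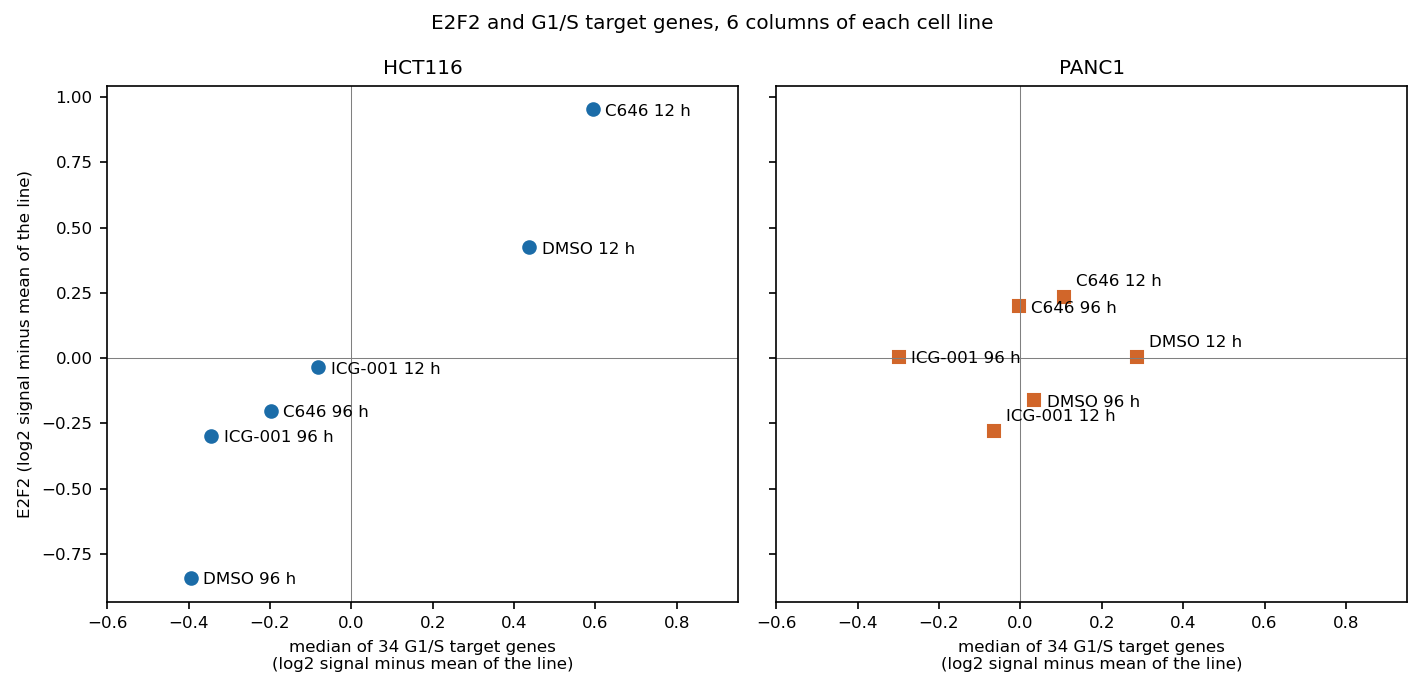
E2F2 (vertical axis) against the median of 34 G1/S target genes (horizontal axis), both as log2 signal minus the mean of the line, for the 6 columns of HCT116 (left) and of PANC1 (right); each point is 1 column. The HCT116 columns run from DMSO 96 h to C646 12 h in both measures, with target medians of -0.40 and 0.59, and the PANC1 columns span a smaller range.

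In PANC1, targets fell mainly with ICG-001. At 96 h in ICG-001, 10 of 33 fell (7.37% of all genes changed), with a median of -0.36 and UHRF1 at -1.17, and the E2F2 log2 ratio was 0.17. At 12 h in ICG-001 2 of 34 fell (2.49%), with a median of -0.33 and MCM3 at -0.75. In C646 0 of 34 changed at 12 h (6.68%), and 1 rose and 1 fell at 96 h (4.02%). The list of 20 late cell cycle genes, which E2F and MuvB complexes control into mitosis, had 7 of 20 that fell in ICG-001 at 96 h in each line (10.3% of all genes changed in HCT116 and 7.37% in PANC1), with medians of -0.45 in HCT116 (BUB1, -1.53) and -0.44 in PANC1 (CCNB1, -0.97). In HCT116 DMSO from 12 to 96 h, where 26 G1/S targets fell, 0 of 20 late genes changed (3.12% of all genes did), with a median of -0.18.

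Of the DP partners, TFDP1 and TFDP2 never changed 1.5-fold, and TFDP3 was under the limit. MYBL2, the B-MYB partner of the MuvB core, was above the limit in 2 of 6 HCT116 columns (148.6 and 153.1 in DMSO and C646 at 12 h) and in all 6 PANC1 columns, and did not change 1.5-fold. Of the 6 genes of the MuvB list, 1 fell in HCT116 ICG-001 at 12 h (8.99% of all genes changed), LIN54, a DNA-binding subunit (-0.66). The other genes of the list also had log2 ratios below 0 there (list median -0.23). RBBP4, a histone chaperone, was the 1 of 6 that was lower in ICG-001 than in C646 in HCT116 at 12 h (-0.70, list median -0.50, 6.25% of all genes changed). No other comparison changed a gene of that list. Of the E2F6 complex, 1 of 10 genes rose and 1 fell in HCT116 ICG-001 at 96 h (10.3% of all genes changed). These were PCGF6 (0.60), its Polycomb ring finger subunit, and CBX3 (-0.90), a chromodomain protein. The PCGF6 signal there was 941.8, against 815.4 and 623.1 in DMSO at 12 and 96 h, so the ratio depended on which DMSO column was used. PCGF6 was also the 1 of 10 that was higher in ICG-001 than in C646 at 96 h in HCT116 (0.89, 6.57% of all genes changed) and PANC1 (0.71, 6.78%). From 12 to 96 h in HCT116 C646, 2 of 10 genes of that list fell (7.11%). These were L3MBTL2 (-0.73) and PCGF6, from 845.9 to 509.2. No gene of that list changed in the other 7 comparisons of a drug with DMSO.

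Of 3 genes that control E2F turnover, 1 fell in HCT116 ICG-001 at 12 h (8.99% of all genes changed) and 2 at 96 h (10.3%). In PANC1 ICG-001 at 96 h, 1 of 3 fell (7.37%). SKP2, a subunit of the ubiquitin ligase for E2F1, fell in HCT116 with ICG-001 (-0.96 at 12 h, -0.60 at 96 h), and CCNF, the cyclin F subunit that recognises E2F proteins, fell in ICG-001 at 96 h in HCT116 (-0.87) and PANC1 (-0.69). From 12 to 96 h in HCT116, SKP2 also fell without ICG-001, in DMSO (-0.65) and in C646 (-0.78), and FBXO5 fell in DMSO (-0.75). None of the 3 changed with C646 against DMSO.

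Among G1 cyclins and their kinases, 2 of 7 changed in HCT116 ICG-001 at 12 h (8.99% of all genes changed) and 2 of 7 at 96 h (10.3%). CCND1, the cyclin D1 gene, rose at both times (0.99 at 12 h, 1.10 at 96 h), and CDK2 fell at 12 h (-0.74). The CDK2 signal there was 791.5, against 1319 and 871.1 in DMSO at 12 and 96 h, so the ratio depended on which DMSO column was used. In C646 at 12 h, 1 of 7 changed in HCT116 (4.12%) and 1 of 7 in PANC1 (6.68%). This was CCND3, which rose in each (0.68 and 0.67). CCND2, under the limit in DMSO, was the 1 of 8 that changed in PANC1 ICG-001 at 96 h (7.37%), and rose at least 1.82-fold. CCNE2, a cyclin E gene, rose in HCT116 ICG-001 at 96 h (0.93). CCNE2 fell in HCT116 DMSO from 12 to 96 h (-1.39), from 476.4 to 182.4, in the direction in which E2F2 fell. CDK4 (-0.64) and CDK2 (-0.60) fell with it, so 3 of 7 changed there (3.12%). The CCNE2 signal in HCT116 ICG-001 at 96 h, 348.6, lay between these DMSO values. Between the drugs in HCT116, 3 of 7 were lower in ICG-001 at 12 h (6.25%), CCND3 furthest (-1.09). At 96 h, 2 of 7 were higher in ICG-001 and 1 was lower (6.57%). From 12 to 96 h in HCT116, CDK6 was the 1 of 7 that fell in ICG-001 (-0.97, 6.88%), and 3 of 7 fell in C646 (7.11%). Of the CDK inhibitors, 2 of 5 changed in HCT116 ICG-001 at 12 h (8.99%) and 2 of 5 at 96 h (10.3%). In C646, 1 of 5 changed in HCT116 at 96 h (3.15%) and 1 of 5 in PANC1 at 12 h (6.68%). CDKN1A (p21) rose with ICG-001 in HCT116 (1.06 at 12 h, 1.12 at 96 h) and with C646 in HCT116 at 96 h (1.37) and in PANC1 at 12 h (0.87). In PANC1, CDKN1A was also the 1 of 5 that changed in DMSO from 12 to 96 h (0.64, 1.31% of all genes changed), from 550.8 to 856.7. Its signal in PANC1 C646 at 12 h was 1006, so the ratio depended on which DMSO column was used. CDKN1C fell with ICG-001 in HCT116 (-0.77 at 12 h, -0.71 at 96 h). From 12 to 96 h in HCT116 C646, 2 of 5 rose (7.11%), CDKN1A furthest (1.31).

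**Figure D4:**
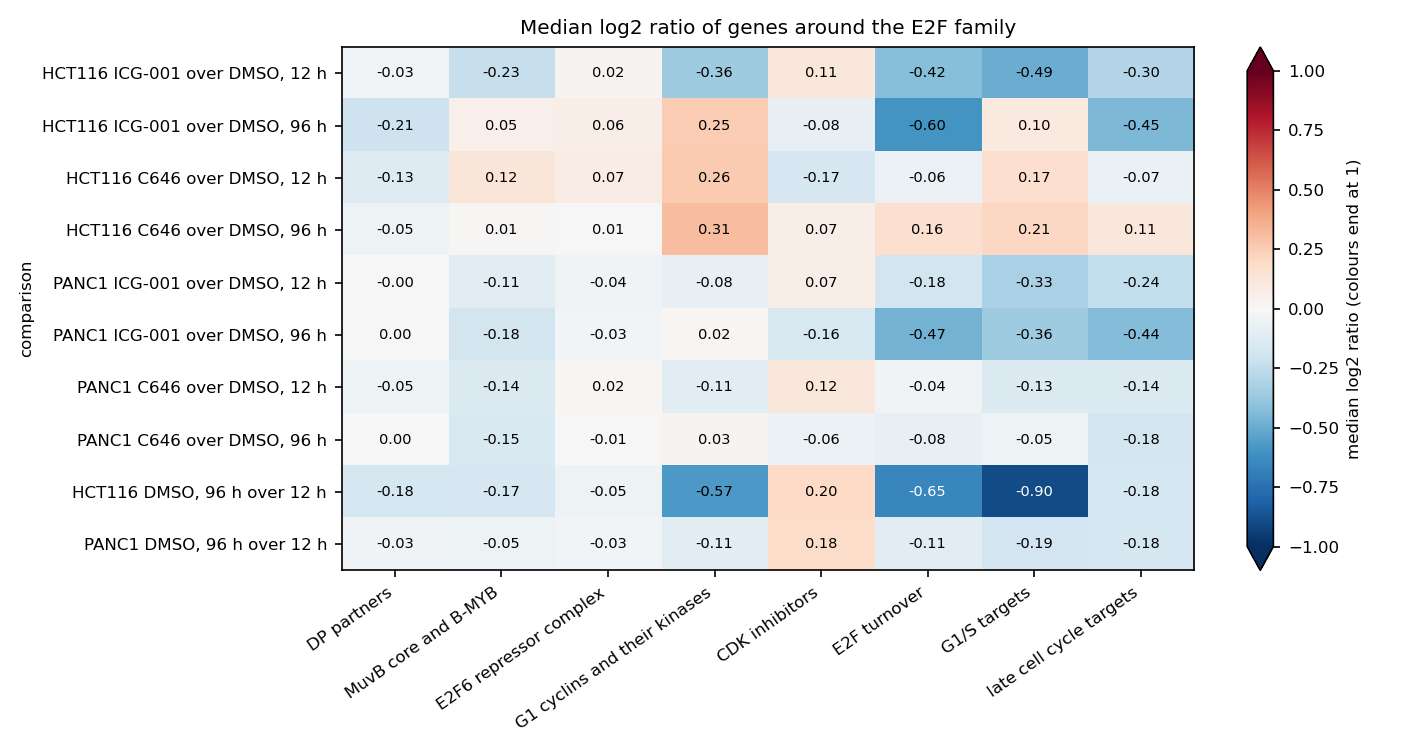
Median log2 ratio of 8 lists of genes around the E2F family (across) in the 8 drug against DMSO comparisons and the 2 DMSO time comparisons (down), with colours ending at 1. G1/S targets are lowest in HCT116 DMSO from 12 to 96 h (-0.90).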

How the data were processed

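Expression was measured on Illumina HumanHT-12 v4 BeadChips in 12 groups taken from the sample labels (2 cell lines, 3 treatments, 12 and 96 h), each with 1 column. The deposited table holds linear signal intensity. The authors quantile normalized the arrays in GenomeStudio, left background in, and averaged replicate arrays (2 independent biological replicates per the methods). Background in the signal makes ratios of dim genes too small. Values of single arrays were not used here, so no test, p-value or SD is given, and the number of arrays limits precision. The number of probes per gene name is not given in the sources used here.

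Sorted log2 values differed by 0.0037 to 0.0093 on average between columns of a line and by 0.063 to 0.066 between lines, a sign that each line was normalized by itself, and signals were compared within a line. The detection limit was the peak of a column's log2 signals plus 2.33 SD, the SD taken from values below the peak. Genes above it in at least 1 column were compared, and a change was a ratio of at least 1.5. The members are a gene family and enter by name, but the family, the lists and the rule for named genes were chosen with earlier results of these data known. The rule names all members, the 3 genes most like each member above the limit in all columns, and from the lists TFDP1, TFDP2, MYBL2, the turnover genes, the G1 cyclins and CDK inhibitors that changed, and the largest rise or fall of a comparison described. Of the list genes, 3 were matched by an older symbol. Alternatives were thresholds of 1.2 and 2, no filter, a limit at 5 SD, normexp (offset 16) with quantile normalization, quantile normalization over all columns, centring, and the mean of both DMSO columns as control. The procedure was run on simulated columns with noise of the size of the background spread and with changes larger than the threshold. Such a run does not measure the error of calls near 1.5-fold. Normexp was run with limma 3.58.1 (R 4.3.3). All else was run in Python 3.11.15, using pandas 2.3.3, numpy 2.4.6 and scipy 1.17.1, with figures drawn by matplotlib 3.10.9. RefSeq promoter sequences came from a table of assembly GRCh38.p14.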

Additional observations from a re-analysis of the deposited data

Results flagged for a closer look

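E2F2 in HCT116 stood on opposite sides of DMSO with ICG-001 at the 2 times: its log2 ratio to DMSO was -0.46 at 12 h and 0.55 at 96 h, a difference of 1.006, which was not tested. The DMSO columns behind these ratios differed 2.41-fold, with 1089 at 12 h and 452.1 at 96 h, and against their mean the ratios were 0.17 and -0.09.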

How the results depend on the processing

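No paired analysis was possible because each group had 1 column. No filter on dim genes and a limit at 5 SD changed no count of members. They also left the number of all genes called the same in every comparison (1529 in HCT116 ICG-001 at 12 h, for example). These 2 settings therefore do not test the calls. A threshold of 1.2-fold gave these counts of members, with the share of all genes in brackets. Against DMSO there were 5 (32.5%) and 4 (34.2%) in HCT116 ICG-001 at 12 and 96 h, and 5 (21.7%) and 2 (19.9%) in HCT116 C646. In PANC1 there were 3 (16.9%) and 1 (29.1%) in ICG-001, and 2 (26.6%) and 2 (21.4%) in C646. Between the drugs at 12 and 96 h, HCT116 had 4 (28%) and 3 (27.7%), and PANC1 had 3 (18.1%) and 1 (27.5%). From 12 to 96 h in DMSO, 4 (22.1%) changed in HCT116 and 2 (15.3%) in PANC1. In ICG-001 these were 3 (29.5%) and 4 (21.7%), and in C646 4 (29.3%) and 2 (8.58%). At 2-fold, 1 member (E2F2) remained in HCT116 DMSO (0.295%) and C646 (1.02%) over time, and 0 in the other comparisons (0.0459% to 2.17%). After normexp, which raised the share of all genes called (given in brackets), 2 members changed in HCT116 ICG-001 at 96 h (E2F2 and E2F7, 22.2%), 2 in C646 at 12 h (E2F8 and RBL2, 11.8%), 1 in PANC1 ICG-001 at 12 h (E2F1, 7.18%), 2 and 1 in HCT116 ICG-001 over C646 at 12 and 96 h (17% and 16.1%), 1 in PANC1 at 12 h (7.85%), 1 in PANC1 DMSO over time (5.3%) and 5 in HCT116 C646 over time (17.6%). Quantile normalization over all columns left 1 (RBL2, 9.27%) in HCT116 ICG-001 at 12 h and gave 1 (RBL2, 4.26%) in C646 at 12 h. Against the mean of both DMSO columns there were 0 in HCT116 ICG-001 at 96 h (9.38%), 2 in C646 at 12 h (E2F2 and RBL2, 6.27%), 0 in C646 at 96 h (4.04%) and 0 in PANC1 C646 at 12 h (4.02%), and 2 of the 24 ratios past 1.2-fold changed sign, both of E2F2. No other setting turned a ratio past 1.2-fold. Signal near the limit bounds what can be said of E2F8 and RBL1.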
